A study of Mus musculus with 8 samples.

Results

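The dystrophin-glycoprotein complex was followed through 8 genes, Dmd, Utrn, Dag1, Sgca, Sgcb, Sgcd, Sspn and Dtna, taken from the table by their symbols. They were chosen with earlier results of these data known. Each symbol had 1 row, so the complex accounts for 8 of the 39017 genes in the table. The cells were muscle stem cells, called satellite cells, from the diaphragm and abdominal muscle of adult Pax3GFP/+ mice, in which 1 copy of Pax3 carries a green fluorescent reporter. Both groups came from such mice and were plated at 7500 cells per 35 mm dish and cultured for 4 days. In 1 group the medium held 10 µM sal003, an inhibitor of eIF2α dephosphorylation, and in the other its vehicle DMSO, with 4 RNA-seq libraries in each. The labels give neither the age beyond adult nor the sex or number of the mice, and do not say whether libraries came from separate animals or cultures, so each p-value reflects library-to-library spread, which may be technical.

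In muscle, the complex ties the actin cytoskeleton to the basement membrane. Dystrophin holds actin at one end and dystroglycan at the other, dystroglycan spans the membrane and binds laminin outside, and the sarcoglycans and sarcospan brace this link within the membrane. Dystrobrevin and the syntrophins form a signalling platform on the cytoplasmic side. Loss of dystrophin causes Duchenne muscular dystrophy, and loss of a sarcoglycan causes limb-girdle muscular dystrophy. In satellite cells, dystrophin is also known for its part in polarity and asymmetric division.

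All 8 transcripts fell in sal003, but by very different amounts. Dmd was 6.64-fold lower, Sgcd 6.97-fold, Sgca 3.29-fold and Dtna 2.97-fold. Dag1, Sgcb, Sspn and Utrn fell by less, between 1.32-fold and 1.55-fold (edgeR, adjusted p from 9.77e-08 for Dmd to 0.0223 for Sgcd). Across the 15816 genes tested, 12.2% were called lower and 22.7% were called in either direction. In 6 of the 8 members every sal003 library lay below every DMSO library, which held for 13.7% of all tested genes, and in Utrn and Sspn the groups overlapped. Summed over the 8 genes, the level was 1599 ± 228 CPM with vehicle and 939 ± 76.0 CPM with sal003 (SD, n = 4), where CPM is the TMM-scaled read count relative to library size. The plot of CPM by library shows the values one by one. All 8 genes passed the filter on low counts, Sgcd through its DMSO libraries alone, since 2 of its 4 sal003 libraries lay below the filter level. The calls of Utrn, Sgcd and Sspn did not hold in every fit that left out 1 library, and Dmd, Dag1, Sgca, Sgcb and Dtna were called in 17 of 17 refits.

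**Figure D1:**
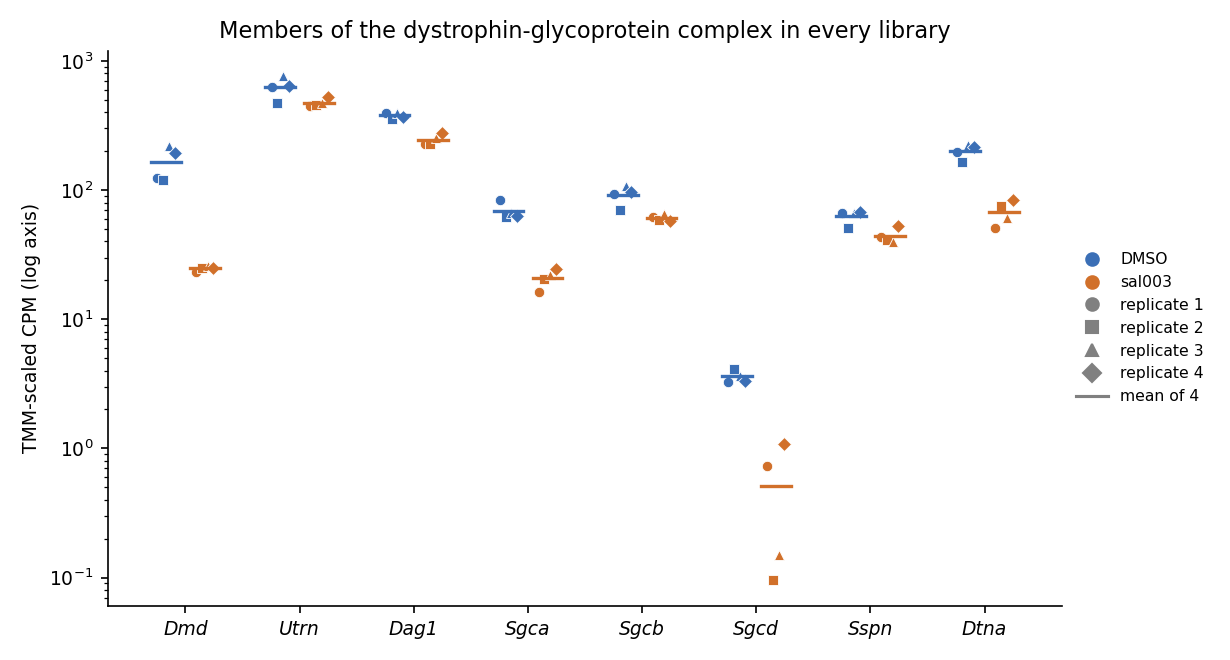
TMM-scaled CPM on a log axis for the 8 members, with 1 point per library (blue DMSO, orange sal003, shape giving the replicate) and a bar at the mean of 4. Dmd and Sgca drop far below their DMSO values in all 4 sal003 libraries, Utrn and Sspn overlap, and Sgcd lies near or below 1 CPM in sal003.

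Total counts ran from 32753929 to 40234107 per library. DMSO replicate 2 stood apart, with 14437 genes detected against 16561 to 18076 in the other libraries, and all 8 members were still called lower without it. Beside the complex, 15 of 15 sarcomere markers were lower and 9 of 10 cycling markers higher in sal003, and their part in the results was not tested. In bulk RNA, fewer differentiating cells and less RNA per cell cannot be told apart. Of 12 satellite cell and myoblast markers, 2 rose (Met and Pax7) and 5 fell (Myog, Des, Ncam1, Cdh15 and Itga7). The sum of the 12 was 8963 to 10270 CPM in DMSO and 4842 to 5225 CPM in sal003. Pax7 stood at 72.1 ± 6.74 and 97.2 ± 2.54 CPM in the DMSO and sal003 groups, and Myod1 at 896 ± 85.8 and 892 ± 52.3 CPM (SD, n = 4). Myog was higher than Pax7 in both groups, at 2634 ± 248 and 870 ± 66.0 CPM. Among other cell types that carry members of the complex, the summed endothelial markers lay at 10.5 to 13.3 CPM in DMSO and 6.45 to 10.2 CPM in sal003, with Emcn and Cldn5 at 0 in all libraries and 1 of 5 tested markers lower, Vwf. Fibroblast markers summed to 97.1 to 117 CPM in DMSO and 100 to 118 CPM in sal003. Almost all of it was Col3a1, at 101 ± 8.93 and 106 ± 9.34 CPM (SD, n = 4). Dcn, Lum and Dpt were at 0, and 0 of 3 tested fibroblast markers were called (edgeR; 0 at an unadjusted p below 0.05). Immune markers summed to at most 6.76 CPM, with Ptprc, Emr1, Lyz2 and Cd3e at 0 and 0 of 3 called (edgeR; 1 at an unadjusted p below 0.05, Itgam). Schwann cell markers summed to 403 to 473 CPM in DMSO and 161 to 174 CPM in sal003, almost all of it Erbb3, the 1 of 6 tested that was called lower, while S100b and Ncmap were at 0. Smooth muscle and pericyte markers summed to 4609 to 5070 CPM in DMSO and 1734 to 1990 CPM in sal003. Of 8 tested, 6 were lower (Abcc9, Des, Acta2, Tagln, Notch3 and Cspg4). Most of that sum was Des and Acta2, which muscle cells also express. Abcc9 went from 77.2 ± 3.83 to 15.2 ± 1.14 CPM and Tagln from 65.7 ± 5.47 to 12.1 ± 4.45 CPM. The smooth muscle myosin Myh11 was not tested and stood at 0.804 ± 0.972 and 0.552 ± 1.01 CPM (SD, n = 4). The part of smooth muscle, endothelial or Schwann cells in the results was not tested.

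Dmd encodes dystrophin, the long rod that binds actin (ENSMUSG00000045103, chromosome X, 82948870 to 85206141, plus strand of mm10). It stood at 125, 120, 221 and 193 CPM in DMSO replicates 1 to 4 and at 23.3, 24.9, 25.9 and 25 CPM in sal003. The sal003 libraries were close to one another and far below every DMSO library, while the DMSO libraries were spread, with replicates 1 and 2 well below 3 and 4. On the log2 scale the fold change was -2.73 ± 0.18 (SE, by edgeR, with an adjusted p of 9.77e-08), among the lowest 1.43% of all tested genes, and lay between -2.85 and -2.55 over the alternatives. The 15 sarcomere markers summed to 61844, 58276, 87933 and 73038 CPM in DMSO replicates 1 to 4 and to 17494 to 20115 CPM in sal003. Most of the DMSO sum was Ttn, and single markers differed in their order over the DMSO libraries, with Myh3 at 9860, 6164, 11104 and 9199 CPM. Their part in the result was not tested.

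The gene has several promoters for full-length transcripts and several internal ones for shorter transcripts that lack the actin-binding end, and counts per gene do not separate them. Of these, 1 of each kind was matched in the RefSeq table, and both are shown because the fall of Dmd was not assigned to any promoter. They are 250 bases before the RefSeq start (GRCm38.p6, plus strand), with E-boxes (CANNTG, the site of MyoD-family factors, read the same on both strands) in capitals.
Dmd full-length promoter, chrX:82948620-82948869: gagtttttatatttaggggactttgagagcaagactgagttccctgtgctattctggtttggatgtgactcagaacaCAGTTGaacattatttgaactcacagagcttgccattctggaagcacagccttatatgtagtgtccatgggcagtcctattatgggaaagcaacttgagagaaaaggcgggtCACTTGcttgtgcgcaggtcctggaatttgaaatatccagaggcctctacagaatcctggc
Dmd internal promoter, chrX:85048045-85048294: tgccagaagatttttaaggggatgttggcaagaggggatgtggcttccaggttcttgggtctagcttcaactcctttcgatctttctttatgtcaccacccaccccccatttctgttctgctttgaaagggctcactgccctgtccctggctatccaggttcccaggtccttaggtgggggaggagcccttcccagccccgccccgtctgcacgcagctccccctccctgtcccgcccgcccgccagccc

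The full-length promoter held 2 E-boxes, starting 173 and 61 bases before the start, no GC box (GGGCGG on either strand) and 45.2% G and C. The internal promoter held 0 E-boxes, 3 GC boxes and 60.0% G and C. Of 32536 RefSeq promoters of the same length, 66.2% held an E-box and 33% a GC box. MCAT elements (CATTCC on either strand) were in neither, and in 12.6% of all promoters. A match is a description of the letters and no measure of binding.

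Utrn encodes utrophin, the paralogue of dystrophin that takes its place in many non-muscle cells and at the neuromuscular junction (ENSMUSG00000019820, chromosome 10, 12382188 to 12869365, minus strand). Its levels were 630, 472, 764 and 639 CPM in DMSO and 445, 455, 474 and 525 CPM in sal003. DMSO replicate 2 lay within the range of the sal003 libraries and the other DMSO libraries above it. The fitted log2 difference was -0.40 ± 0.12 (edgeR adjusted p = 0.0219). Leaving out any 1 of 6 libraries (DMSO replicates 1, 3 and 4, sal003 replicates 1, 2 and 3) ended this call, with an adjusted p of 0.0575 to 0.0930. The smallest difference, -0.28, came without DMSO replicate 3.

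Per kilobase of merged exons, Utrn was above Dmd in every library, at 36.6 ± 6.99 against 6.92 ± 2.12 CPM per kb in the vehicle and 27.7 ± 2.08 against 1.04 ± 0.0445 CPM per kb in sal003 (SD, n = 4). The share of Dmd in the summed level of both was 12.4%, 15.4%, 17.2% and 17.8% in DMSO and 3.64%, 3.79%, 3.78% and 3.32% in sal003. The log2 ratio of Dmd to Utrn, also per kb of merged exons, does not depend on how libraries are scaled. It went from -2.44 ± 0.28 in DMSO to -4.73 ± 0.09 in sal003 (SD, n = 4), a difference of -2.30 ± 0.15 (SE). The exact two-sided permutation test gave p = 0.0286, the smallest that 4 against 4 libraries allow, and 0.0286 after adjustment over the 3 ratios compared. Drp2, the smaller dystrophin-related protein known from Schwann cells, fell by 0.55 on the log2 scale (adjusted p = 0.000571), from 123 ± 6.50 to 83.7 ± 7.0 CPM.

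The genes whose profiles over the 8 libraries lay closest to that of Dmd were Mef2c, Limch1 and Cav3, with root mean square differences of 0.172, 0.204 and 0.221 between centred log2 CPM, out of 15815 genes compared. Mef2c, a transcription factor of muscle differentiation, changed by -2.65 on the log2 scale. Closest to Utrn were Clasp1 (0.0816), Vps18 (0.0918) and Zfand3 (0.0932), of which Clasp1 was called lower (log2 fold change -0.36, adjusted p = 0.0164) and the other two were not (adjusted p = 0.0717 and 0.147). The Clasp1 call was lost without DMSO replicate 3 (0.0744) or sal003 replicate 3 (0.0643). Vps18 and Zfand3 were called without DMSO replicate 2 (0.0139 and 0.00550). These distances describe a likeness over libraries that share their group and depth.

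**Figure D2:**
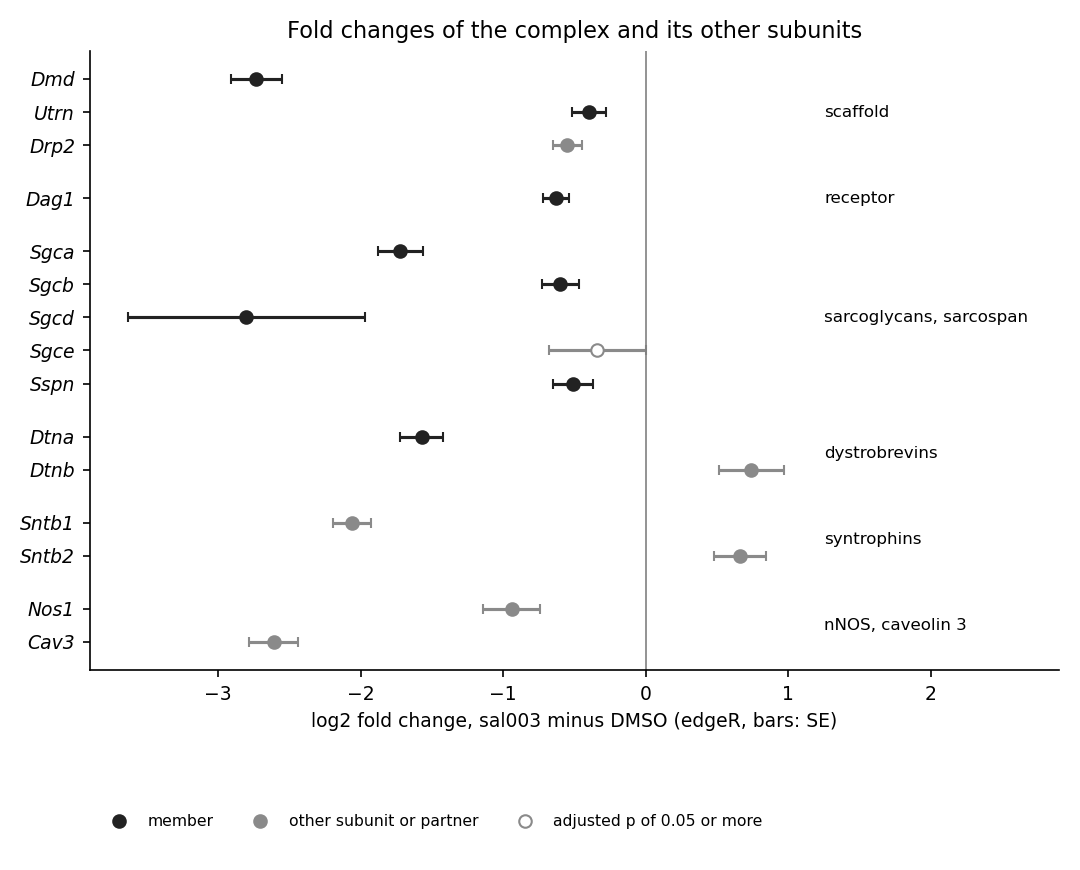
Log2 fold change of sal003 against DMSO from edgeR with its SE, for the 8 members (black) and 7 other subunits and partners (grey), ordered by role. Most lie left of 0, from -2.80 for Sgcd to -0.34 for Sgce, which was not called (open), and Dtnb and Sntb2 lie right of it, at 0.74 and 0.66.

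Dag1 encodes the precursor of α- and β-dystroglycan, the laminin receptor at the centre of the complex (ENSMUSG00000039952, chromosome 9, 108204634 to 108263958, minus strand). Its CPM were 398, 356, 398 and 370 in DMSO and 228, 227, 252 and 275 in sal003. Both groups were tight and did not overlap. By edgeR the change was -0.63 ± 0.09 on the log2 scale (adjusted p = 5.86e-05) and stayed between -0.68 and -0.59 over the alternatives. Per kilobase it was the highest member in both conditions, at 59.8 ± 3.31 CPM per kb in DMSO and 38.6 ± 3.57 in sal003. Dag1 came next in p after Dmd, Sgca and Dtna, and no RefSeq promoter was found for Dtna. Of the 2 overlapping RefSeq promoters of Dag1 the upstream one is shown.
Dag1 promoter, chr9:108263959-108264208, minus strand: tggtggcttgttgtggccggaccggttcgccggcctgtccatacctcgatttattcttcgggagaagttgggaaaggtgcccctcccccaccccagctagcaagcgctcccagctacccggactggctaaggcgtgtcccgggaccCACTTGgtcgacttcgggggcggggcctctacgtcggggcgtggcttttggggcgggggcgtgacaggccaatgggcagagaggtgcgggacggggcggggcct

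That sequence held 67.6% G and C, 3 GC boxes and 1 E-box, 104 bases before the start, which matched 1 annotated transcript. The other Dag1 promoter, whose start matched 3 transcripts, held 74.8% G and C, 3 GC boxes and the same E-box, 247 bases before its start.

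Outside the cell, dystroglycan binds laminin, agrin and perlecan. Of 18 ligands and laminin chains considered, 13 were tested, 6 fell and 2 rose, beside 12.2% lower and 10.6% higher among all tested genes, and the median log2 fold change was -0.75 (-0.003 over all tested genes). Hspg2, which encodes perlecan, went from 1413 ± 230 to 738 ± 26.8 CPM (SD, n = 4). Lama2, the α2 chain of the laminin of mature muscle, went from 205 ± 17.4 to 103 ± 16.6 CPM (-0.99 ± 0.11 on the log2 scale, edgeR adjusted p = 9.74e-06). Agrn, agrin, fell by 0.99 and Lamb2 by 0.75 on the log2 scale. The 2 that rose were the laminin chains Lama5 (0.51 ± 0.13, adjusted p = 0.0102) and Lamb1 (0.34 ± 0.09, adjusted p = 0.0105). The other ligands that fell were Bgn and Lamb3.

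The sugar chain through which α-dystroglycan holds laminin is built by glycosyltransferases and a kinase, from sugars that other enzymes supply. Of 18 genes of both kinds considered 17 were tested, 15 did not pass, 0 rose and 2 fell by edgeR, a share of 11.8% lower beside 12.2% of all genes, with a median log2 fold change of -0.26. Upwards, 1 enzyme, Dpm2, had an unadjusted p below 0.05, and DESeq2 called 0 and limma 1. The 2 that fell were Pomgnt1, from 74.9 ± 6.17 to 57.2 ± 4.03 CPM (SD, n = 4; edgeR adjusted p = 0.0171), and Pomgnt2 (from 7.36 ± 2.04 to 3.60 ± 0.835 CPM, adjusted p = 0.0499). Pomgnt1 lost its call without DMSO replicate 3 (0.0512) or sal003 replicates 1 (0.0744) and 4 (0.0507), and Pomgnt2 in 7 of 8 such fits (up to 0.195), with the exception of that without DMSO replicate 2. In the fits without DMSO replicate 3, sal003 replicate 1 or sal003 replicate 4, 0 of the enzymes were called lower. The polymerase Large, which lengthens the chain, differed by -0.30 ± 0.12 on the log2 scale (adjusted p = 0.0942).

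The sarcoglycans form a group of membrane proteins beside dystroglycan. Sgca encodes α-sarcoglycan, which is made in striated muscle (ENSMUSG00000001508, chromosome 11, 94962791 to 94976327, minus strand). It stood at 83.8, 61.4, 66.1 and 63.4 CPM in DMSO and 16.3, 20.4, 22.1 and 24.6 CPM in sal003. Every sal003 library was below every DMSO library. Its log2 change was -1.72 ± 0.16 (edgeR adjusted p = 8.03e-07), with a range of -1.80 to -1.60 over the alternatives. The closest profiles were those of Fam214b (root mean square difference 0.115, log2 fold change -1.79), Usp20 (0.136 and -1.63) and Dbndd1 (0.136 and -1.6). Its promoter is shown because only Dmd had a lower p among the members.
Sgca promoter, chr11:94976328-94976577, minus strand: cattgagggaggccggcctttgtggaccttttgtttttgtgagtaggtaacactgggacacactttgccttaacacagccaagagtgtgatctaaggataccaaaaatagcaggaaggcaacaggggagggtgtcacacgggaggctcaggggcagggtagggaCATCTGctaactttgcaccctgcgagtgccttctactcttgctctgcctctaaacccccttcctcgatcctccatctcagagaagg

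It held 1 E-box, 86 bases before the start, no GC box, no MCAT element and 52.8% G and C.

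Sgcb encodes β-sarcoglycan, a subunit also made outside muscle (ENSMUSG00000029156, chromosome 5, 73632749 to 73647790, minus strand). It stood at 93.1, 69.6, 108 and 97.0 CPM in DMSO and at 61.4, 58.9, 64.8 and 57.7 CPM in sal003. The groups did not overlap, though DMSO replicate 2 lay close to the sal003 libraries. The difference on the log2 scale was -0.60 ± 0.13 (edgeR adjusted p = 0.00273).

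Sgcd encodes δ-sarcoglycan (ENSMUSG00000020354, chromosome 11, 46896253 to 47988969, minus strand) and was the scarcest member. Its raw counts were 103, 140, 124 and 127 in DMSO and 30, 4, 6 and 42 in sal003, which is 3.29, 4.15, 3.64 and 3.34 CPM against 0.735, 0.0949, 0.150 and 1.08 CPM. All sal003 libraries were lower, but they differed widely among themselves, with replicates 2 and 3 far below 1 and 4. The log2 fold change of -2.80 ± 0.83 (edgeR adjusted p = 0.0223) carried the largest SE of the members. Leaving out DMSO replicate 3 ended its call (adjusted p = 0.0534), as did leaving out replicate 2 (0.0571) or 3 (0.0632) of sal003, and the value ranged from -3.52 to -2.45 over the alternatives.

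Sgce encodes ε-sarcoglycan, the paralogue of the α subunit in smooth muscle and nerve, and was low, at 6.07 ± 1.14 and 4.79 ± 1.06 CPM in the DMSO and sal003 groups (SD, n = 4). The difference of -0.34 ± 0.34 on the log2 scale missed the threshold (adjusted p = 0.572). Sgcz had no count in any library, where 3 counts would correspond to 0.0712 to 0.0959 CPM.

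The balance between Sgca and Sgcb differed by condition. Per kilobase of exon, Sgca made up 62.6% ± 4.56 of the summed level of Sgca, Sgcb, Sgcd and Sgce in DMSO and 43.5% ± 4.68 in sal003, and Sgcb 35.8% ± 4.49 and 54.7% ± 4.76 (SD, n = 4). Sgcb therefore led in sal003 replicates 1, 2 and 3 and stood level with Sgca in replicate 4 (49.1% and 49.0%), whereas Sgca led in all DMSO libraries. The summed level itself was 63.3 ± 7.80 CPM per kb in DMSO and 27.5 ± 2.0 CPM per kb in sal003. The log2 ratio of Sgca to its paralogue Sgce, per kb of merged exons, fell from 6.12 ± 0.39 to 4.75 ± 0.30. The difference was -1.37 ± 0.25 (exact two-sided permutation p = 0.0286, adjusted over the 3 ratios 0.0286). The level of this ratio, unlike the difference, depends on the length used. Sgce has 10612 bases of merged exons and 1776 in its longest coding transcript. Over the longest coding transcripts, Sgca and Sgce stood at 39.8 and 3.42 CPM per kb in DMSO and at 12.1 and 2.69 in sal003.

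Sspn encodes sarcospan, a small protein with 4 membrane passes that binds the sarcoglycan ring (ENSMUSG00000030255, chromosome 6, 145931641 to 145965223, plus strand). Its CPM were 66.4, 50.4, 66.2 and 67.5 in DMSO and 43.6, 40.8, 39.5 and 52.5 in sal003. DMSO replicate 2 lay below sal003 replicate 4, and the other libraries of the groups did not cross. The edgeR estimate was -0.51 ± 0.14 on the log2 scale (adjusted p = 0.0133), and without sal003 replicate 3 the adjusted p was 0.0536. Of its exon bases, 69 (1.38%) overlap the antisense gene Sspnos, whose reads cannot be told apart if strand was not used in counting.

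**Figure D3:**
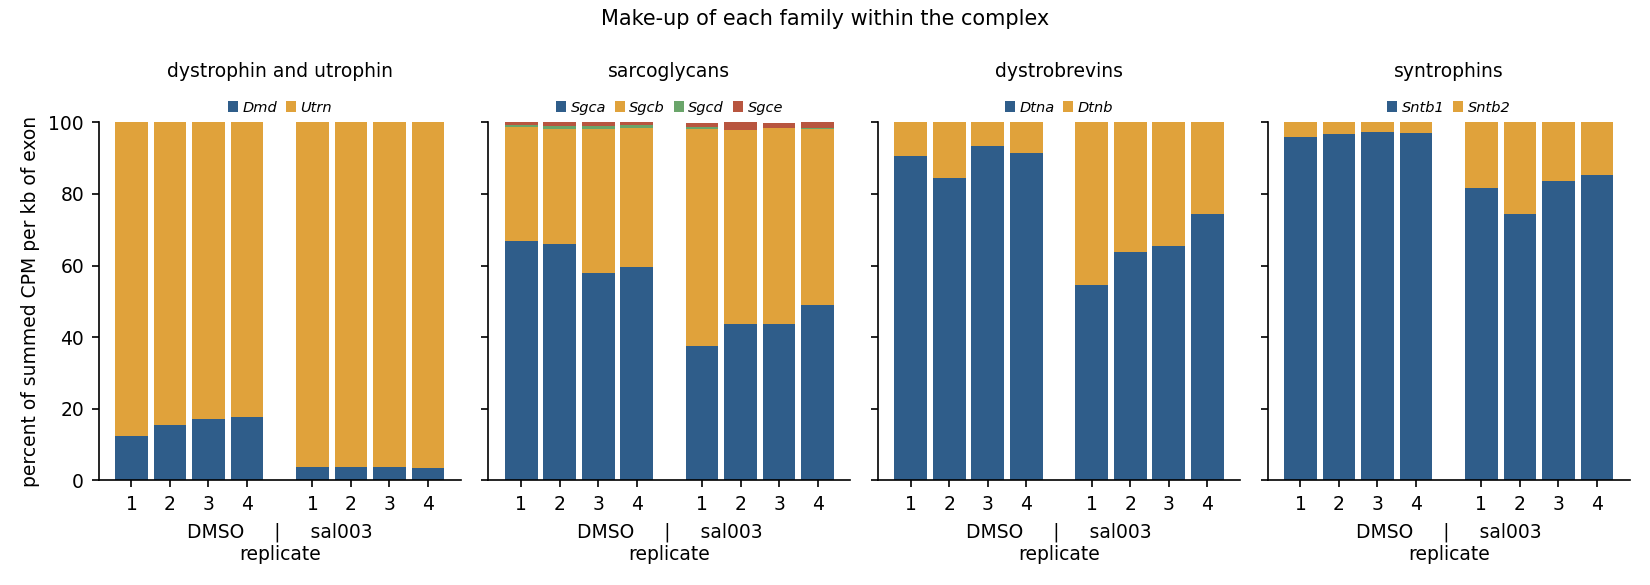
Stacked bars give, for each library, the percent of the summed CPM per kb of exon that each gene shown contributes within 4 families of the complex, with DMSO replicates on the left of each panel and sal003 on the right. Dmd shrinks from between 12.4% and 17.8% to below 4% of its family, Sgca shrinks and Sgcb grows among the sarcoglycans, and Dtnb and Sntb2 grow among the dystrobrevins and syntrophins.

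On the cytoplasmic side, Dtna encodes α-dystrobrevin, which binds dystrophin and carries syntrophins (ENSMUSG00000024302, chromosome 18, 23415135 to 23659715, plus strand). It stood at 197, 166, 224 and 214 CPM in DMSO and 51.2, 74.6, 60.4 and 84.0 CPM in sal003. All sal003 libraries lay below the lowest DMSO library, replicate 2. The log2 change was -1.57 ± 0.15 (edgeR adjusted p = 1.38e-06). Its paralogue Dtnb, β-dystrobrevin, known from non-muscle tissue, moved the other way, from 11.7, 17.3, 9.14 and 11.4 CPM to 24.2, 24.1, 18 and 16.5 CPM (0.74 ± 0.23, adjusted p = 0.0307). DMSO replicate 2 lay above sal003 replicate 4. Its call ended on leaving out any 1 of 5 libraries, namely DMSO replicates 1 (0.0696), 3 (0.0855) and 4 (0.0673) and sal003 replicates 1 (0.106) and 2 (0.108). The share of Dtnb among dystrobrevins was 10.1% ± 3.83 in DMSO and 35.5% ± 8.07 in sal003 per kilobase of exon (SD, n = 4). The log2 ratio of Dtna to Dtnb fell from 3.23 ± 0.57 to 0.88 ± 0.52, a difference of -2.35 ± 0.39 (exact two-sided permutation p = 0.0286, adjusted over the 3 ratios 0.0286).

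The syntrophins are adaptors that dock signalling proteins on dystrophin and dystrobrevin. Sntb1, β1-syntrophin, went from 262 ± 18 to 62.9 ± 12.7 CPM (SD, n = 4; -2.06 ± 0.13 on the log2 scale, edgeR adjusted p = 1.87e-08). Sntb2, β2-syntrophin, rose from 22, 17, 15.5 and 14.6 CPM to 28.9, 30.3, 24.6 and 25.5 CPM (0.66 ± 0.18, adjusted p = 0.0135), a call lost without sal003 replicate 2 (0.0547). Its share of the summed level of Sntb1 and Sntb2 went from 3.28% ± 0.623 to 18.8% ± 4.76 per kilobase of exon. Sntg1 and Sntg2, the γ forms of brain, had 0 counts in all libraries. Without sal003 replicate 2 neither Sntb2 nor Dtnb was called.

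Nos1, the neuronal nitric oxide synthase that the complex anchors at the membrane, went from 21.6 ± 3.66 to 11.2 ± 1.39 CPM (SD, n = 4; -0.94 ± 0.20, edgeR adjusted p = 0.00293), and 2.40% of its exon bases overlap an antisense gene. Cav3, the caveolin of muscle that binds β-dystroglycan, went from 74.2 ± 14.6 to 12.2 ± 1.6 CPM (-2.61 ± 0.17, adjusted p = 1.86e-08). Of the 10 other subunits and partners considered, 7 were thus tested, 4 fell and 2 rose, with a median log2 fold change of -0.55. The shares over all tested genes were 12.2% lower and 10.6% higher.

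Within DMSO, the members ranked per kilobase of exon from Dag1 through Sgca (39.6 CPM per kb), Utrn (36.6), Sgcb (22.7), Sspn (12.5), Dtna (11.8) and Dmd (6.92) to Sgcd (0.437). The ranges of Sgca and Utrn overlapped, as did those of Sspn and Dtna, and the other neighbours did not. In sal003 the order was Dag1, Utrn, Sgcb (15), Sgca (12.0), Sspn (8.83), Dtna (3.99), Dmd and Sgcd (0.0624), with an overlap between Sgca and Sspn only. The merged exons take in every annotated transcript of a gene. Over the longest coding transcript, Dtna stood at 31.8 CPM per kb in DMSO and ranked above Sgcb, Utrn ranked above Sgca, and Dmd stayed between Sspn and Sgcd at 11. The ranges of Dtna and Sgcb, of Utrn and Sgca and of Sspn and Dmd overlapped. By this length in sal003, Dag1 (43.4) ranked above Utrn (38.3) and Dtna (10.7) above Sspn (9.78), with overlapping ranges in both pairs.

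The complex meets the cytoskeleton through actin, plectin and intermediate filaments. Of 17 such links listed 16 were tested, 4 fell and 2 rose, with a median log2 fold change of -0.13. Among all tested genes, 12.2% were lower and 10.6% higher. Des, desmin, went from 2941 ± 224 to 1171 ± 40.7 CPM (SD, n = 4), Macf1 fell by 1.36, Plec, plectin, by 0.58 and Pard3, a polarity protein, by 0.41 on the log2 scale. The 2 that rose were the cytoplasmic actins Actg1 (0.70 ± 0.08) and Actb (0.44 ± 0.12, edgeR adjusted p = 0.0126). Mark2, a polarity kinase that binds dystrophin in satellite cells, stood at 65.7 ± 3.69 and 62.8 ± 4.73 CPM and did not pass (adjusted p = 0.764).

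Integrin α7β1 is the other laminin receptor of muscle. Of 19 genes of this linkage, all tested, 9 fell and 0 rose by edgeR, beside 12.2% lower and 10.6% higher among all tested genes. By DESeq2, by limma and at an unadjusted p below 0.05 in edgeR, 0 rose as well. The median log2 fold change was -0.34, beside a median of -1.10 for the 8 members and -0.63 for the 7 without Sgcd. The receptor chains Itga7 (-0.56 ± 0.09, edgeR adjusted p = 0.000324) and Itgb1 (-0.34 ± 0.10, adjusted p = 0.0169) fell by amounts near those of Dag1 and Utrn. The genes with the lowest p were the filamin Flnc (-1.97 ± 0.12), Itgb1bp2, which encodes the muscle protein melusin (-3.02 ± 0.18), the LIM protein Csrp3 (-2.51 ± 0.19) and the Z-disc protein Ldb3 (-1.96 ± 0.14). The 15 sarcomere markers had a median of -2.43. Whether these medians differ was not tested, and the plot of fold changes by list shows each gene.

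**Figure D4:**
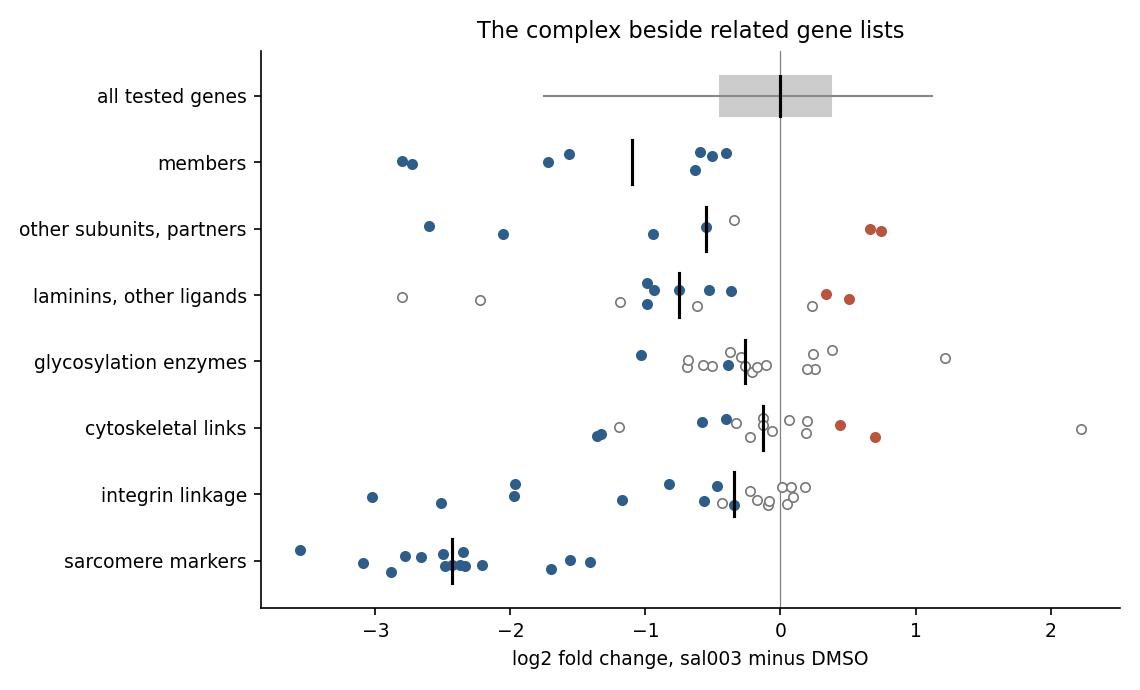
Each point is the log2 fold change of 1 tested gene (filled where adjusted p was below 0.05, blue lower and red higher in sal003), with a black line at the median of the list. The grey box spans the interquartile range of all 15816 tested genes and its line the 5th to 95th percentile. The members lie left of 0 throughout, between the integrin linkage and the sarcomere markers by median.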

How the data were processed

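RNA was measured in 8 libraries, 4 per group. Per the labels' protocols, ribosomal and mitochondrial RNA was removed and stranded libraries were sequenced on a MiSeq. The tools named in the submitters' processing notes are featureCounts 1.4.4, STAR 2.3.0e and Trimmomatic 0.32, and the build is mm10. The authors deposited whole-number counts per gene. The sources used here do not state how strand, multiple alignments or overlaps were handled. The labels give the dose as 10 µM in the sample attributes and in mM in the treatment protocol, and 10 µM is used here. Counts from 1 to 20 were mostly even (75.6% to 83.4% per library), so counting error may be understated and halved counts were 1 alternative. Replicates differed beyond counting noise (chi-square per degree of freedom at least 25.3), so none was a duplicate.

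Genes were kept with filterByExpr (minimum count 10, total 15), scaled by TMM and compared in edgeR 4.0.16 (R 4.3.3) by a robust two-sided quasi-likelihood test on condition, with Benjamini-Hochberg adjustment over all 15816 tested genes and a threshold of 0.05. The SE is the log2 fold change divided by the square root of F. The fit was tested on simulated counts. Levels per kb use merged exons of GENCODE M21 (mm10), and promoters are RefSeq sequences, found for 7 of the 8 members. Protein sequences were not used here, and some genes of the lists are not reported here and were left out of the list counts and shares. The 3 ratios, of counts per kb of merged exons, were tested by exact permutation in SciPy 1.17.1. Alternatives were other scalings and filters, DESeq2 1.42.0, limma 3.58.1 (voom with quality weights), a replicate block, halved counts, removal of mitochondrial and the 20 most abundant genes, a threshold of 0.01 and leaving out each library. The longest coding transcript as length was added after seeing the data. The text names all members, the other subunits counted, up to 4 genes per further list in order of p (and those left by a count of 5 or fewer), and the 3 nearest profiles of Dmd, Utrn and Sgca. Other genes, such as markers, Large, Mark2, Itga7 and Itgb1, were chosen after their values were seen. Members and lists were chosen with earlier results of these data known.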

Additional observations from a re-analysis of the deposited data

Results flagged for a closer look

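In 80 groups of 4 libraries, the highest or lowest library was examined for its gap to the nearest other one as a share of the group's range, against Dixon's 95% limit, which chance passes in about 1 group in 20. Sspn in DMSO passed it (0.923), with replicate 2 at 50.4 CPM below 3 libraries between 66.2 and 67.5 CPM. Dbndd1, one of the nearest profiles of Sgca, passed it in sal003 (0.921), with replicate 1 lowest at 7.30 CPM.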

How the results depend on the processing

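The log2 fold changes of Dmd, Dag1, Sgca, Sgcb and Dtna kept their direction and their call in all 17 refits, and no member changed sign in any. The number of members called lower was 8 in the replicate block fit and ran from 5 (without sal003 replicate 3) to 8 when 1 library was left out. At an adjusted p of 0.01 it was 5, with Utrn (-0.40), Sgcd (-2.80) and Sspn (-0.51) lost. Of all 15816 tested genes, 1324 were called lower and 984 higher at that threshold. Without 1 library, the log2 fold change ranged from -0.50 to -0.28 for Utrn, from -3.45 to -2.45 for Sgcd and from -0.59 to -0.45 for Sspn, and the cause was not tested. Sgcd could not be tested at 10 CPM in 4 libraries. The labels do not say that same numbers mark shared animals, so the numbers were not taken as pairs. Deviations correlated by -0.00531 to 0.0354 between same-numbered libraries and by -0.0587 to 0.0748 between the others. As these ranges overlap, the correlations cannot decide on pairing. With the replicate block, 1660 genes were higher and 1770 lower, against 1671 and 1923, while all 8 members stayed called and Pomgnt2 lost its call (adjusted p = 0.102). Genes called without 1 library ranged from 1270 to 2219 higher and 1612 to 2252 lower, with the most in each direction without DMSO replicate 2. Without mitochondrial and the 20 most abundant genes, 2 cytoskeletal links were lower and 1 higher. That setting took Macf1, Plec and Actb themselves out of the fit. Macf1 and Plec kept their call in the other 16 refits. The paired differences of the log2 ratios were -2.30 (Dmd to Utrn), -1.37 (Sgca to Sgce) and -2.35 (Dtna to Dtnb), with p = 0.125, the smallest that exact sign flips of 4 pairs allow. Without 1 library the ratios ranged from -2.42 to -2.22, from -1.51 to -1.20 and from -2.61 to -2.14, each with an exact permutation p of 0.0571, the smallest that 3 against 4 allow. Median log2 fold changes of the lists kept their sign in every refit. Low counts limit the precision of Sgcd, Sgce and Pomgnt2.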
